A study of Mus musculus with 12 samples.

Results

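Transcripts of 77 mitochondrial ribosomal proteins were measured in the brown adipose tissue (BAT) of mice with and without the nuclear receptors ERRα and ERRγ in adipocytes. The members were all genes whose symbol starts with Mrpl or Mrps followed by a digit, 48 named for the large and 29 for the small subunit. They made up 77 of the 12380 genes of the smaller deposited table and 77 of the 24452 genes of the RPKM table. All 77 passed the filter on low values, so each statement over the members covers all of them. The rule leaves out mitoribosome proteins with other symbols and takes in Mrps36, both described below. RNA-seq was run on 12 libraries from male C57BL/6J Bom mice of 12 weeks, housed at 30 °C, in 4 groups of 3. ERRαγAd-/- mice carried floxed ERRα and ERRγ alleles and a Cre transgene driven by the adiponectin promoter, and WT mice were littermates with the same floxed alleles and no Cre. Cells other than adipocytes are not targeted by that promoter. Mice of each genotype received 1 mg/kg of the β3-adrenergic agonist CL316,243, or an equal volume of PBS, by intraperitoneal injection every day for 10 days at ZT 4. BAT was collected 24 h later than the final dose. The groups were thus ERRαγAd-/- with CL316,243, ERRαγAd-/- with PBS, WT with CL316,243 and WT with PBS. The labels do not say that each library came from a separate animal, so the p-values below measure the spread between these libraries.

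Mitochondrial ribosomes translate the few proteins encoded by mitochondrial DNA, nearly all of them subunits of the respiratory chain and ATP synthase. Their RNA is made in the mitochondrion, but every one of their proteins is encoded in the nucleus, translated in the cytosol and imported. The small subunit binds the mRNA and decodes it, and the large subunit joins the amino acids. BAT is dense in mitochondria, and ERRα and ERRγ are known there as activators of genes of oxidative metabolism.

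Levels are given as scaled RPKM. RPKM are reads normalised to transcript length and to a read total, which the sources used here do not give. They were divided by 1 factor per library so that the median gene is aligned between libraries. Changes are differences of log2(scaled RPKM + 0.5) with their standard errors. A gene is said to rise or fall when limma's test passed 0.05 after Benjamini-Hochberg adjustment over the 12249 genes tested. The scale matters for the direction of these genes. On the RPKM values as deposited, the median gene was itself 0.53 higher on the log2 scale in ERRαγAd-/- than in WT under PBS and 0.63 higher under CL316,243. The shift was -0.26 for CL316,243 against PBS in WT, -0.16 in ERRαγAd-/- and 0.09 for the difference between those 2 effects. Whole reads recovered from the smaller table numbered 12468001 to 12954186 per library in ERRαγAd-/- CL316,243, 12822176 to 13263567 in ERRαγAd-/- PBS, 8979123 to 9559239 in WT CL316,243 and 8478310 to 9727167 in WT PBS. The 77 genes took 0.319 to 0.367% of those reads in ERRαγAd-/- CL316,243 and 0.296 to 0.330% in ERRαγAd-/- PBS. In WT they took 0.589 to 0.659% with CL316,243 and 0.489 to 0.599% with PBS. These shares use no median-gene factor, but dividing by the recovered reads of the library is itself a scaling. By these shares no ERRαγAd-/- library reached the lowest WT library.

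Esrra, which encodes ERRα, stood at 8.37, 6.69 and 8.70 scaled RPKM in ERRαγAd-/- CL316,243, at 8.71, 5.25 and 8.89 in ERRαγAd-/- PBS, at 83.05, 75.5 and 78.9 in WT CL316,243 and at 46.9, 41.6 and 42.3 in WT PBS. Esrrg, which encodes ERRγ, stood at 6.36, 6.59 and 8.11, at 3.61, 2.29 and 4.71, at 8.12, 6.99 and 5.61 and at 8.26, 7.96 and 4.40 in the same order of groups. Esrra separated the genotypes in every library. Esrrg was lower in ERRαγAd-/- under PBS (log2 change -0.87 ± 0.25, adjusted p = 0.0189), but not under CL316,243 (0.03 ± 0.25, adjusted p = 0.944). The RPKM values cover whole genes, and no source used here gives the deleted part of each gene, so they check the deletion only in part. Ucp1, the uncoupling protein that defines brown adipocytes, was at 27.8, 27.6 and 54.4 scaled RPKM in ERRαγAd-/- CL316,243, 3.26, 3.95 and 6.37 in ERRαγAd-/- PBS, 2963, 1836 and 2250 in WT CL316,243 and 484, 315 and 538 in WT PBS. Summed over 9 brown adipocyte markers, Ucp1 included, the level was 18040 to 18290 in ERRαγAd-/- CL316,243, 10670 to 14710 in ERRαγAd-/- PBS, 19140 to 20590 in WT CL316,243 and 11130 to 16530 in WT PBS. Fabp4 made up most of that sum, and single markers went opposite ways: under PBS Cidea averaged 123 ± 45.7 scaled RPKM in ERRαγAd-/- against 1173 ± 273 in WT, Adrb3 218 ± 34.98 against 21.1 ± 3.46 and Plin1 637 ± 43.6 against 367 ± 36.4 (SD, n = 3 each). The sum of 4 fibroblast markers, none of them at 0, was 159.6 to 240.2 scaled RPKM in ERRαγAd-/- CL316,243, 190.9 to 245 in ERRαγAd-/- PBS, 121.5 to 135 in WT CL316,243 and 134 to 176 in WT PBS. The genotypes did not overlap in it under either treatment. Dcn made up most of that sum, and under PBS the other markers, Col1a1, Pdgfra and Pi16, each overlapped between genotypes. Of the 4 genes limma called 0 under PBS, where 15.8% of all genes were called higher. Under CL316,243, where that share was 19.8%, limma called 3 of 4, all higher in ERRαγAd-/-. The part of fibroblast RNA in the members' genotype changes was not tested. Skeletal muscle transcripts differed between libraries. The summed level of 14 muscle markers, none of them at 0 in all libraries, was 273 to 1966 in ERRαγAd-/- CL316,243, 159 to 3722 in ERRαγAd-/- PBS, 73.3 to 507 in WT CL316,243 and 40.7 to 382 in WT PBS. Replicate 3 was the highest for muscle markers in both ERRαγAd-/- groups. In WT PBS, replicate 3 was the highest of its group in 75 of the 77 members, against 41.9% of all genes tested. Results that rest on these libraries are given below with and without them.

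Nearly all members were lower in ERRαγAd-/- BAT on the scaled values, and most were higher after CL316,243 in WT. The summed level of the 77 transcripts was 2118 ± 137 scaled RPKM in ERRαγAd-/- CL316,243, 1824 ± 144 in ERRαγAd-/- PBS, 4681 ± 127 in WT CL316,243 and 3378 ± 635 in WT PBS (SD, n = 3 each). The sums of the ERRαγAd-/- libraries lay below those of every WT library. Relative to the WT PBS mean, the median member in each library was at -0.43, -0.64 and -0.56 on the log2 scale in ERRαγAd-/- CL316,243 and at -0.86, -0.66 and -0.76 in ERRαγAd-/- PBS. It was at 0.48, 0.41 and 0.42 in WT CL316,243, and at -0.10, -0.16 and 0.26 in WT PBS. In the heat map of all members by library, the difference between genotypes ran from deep in a few genes to absent in others.

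**Figure D1:**
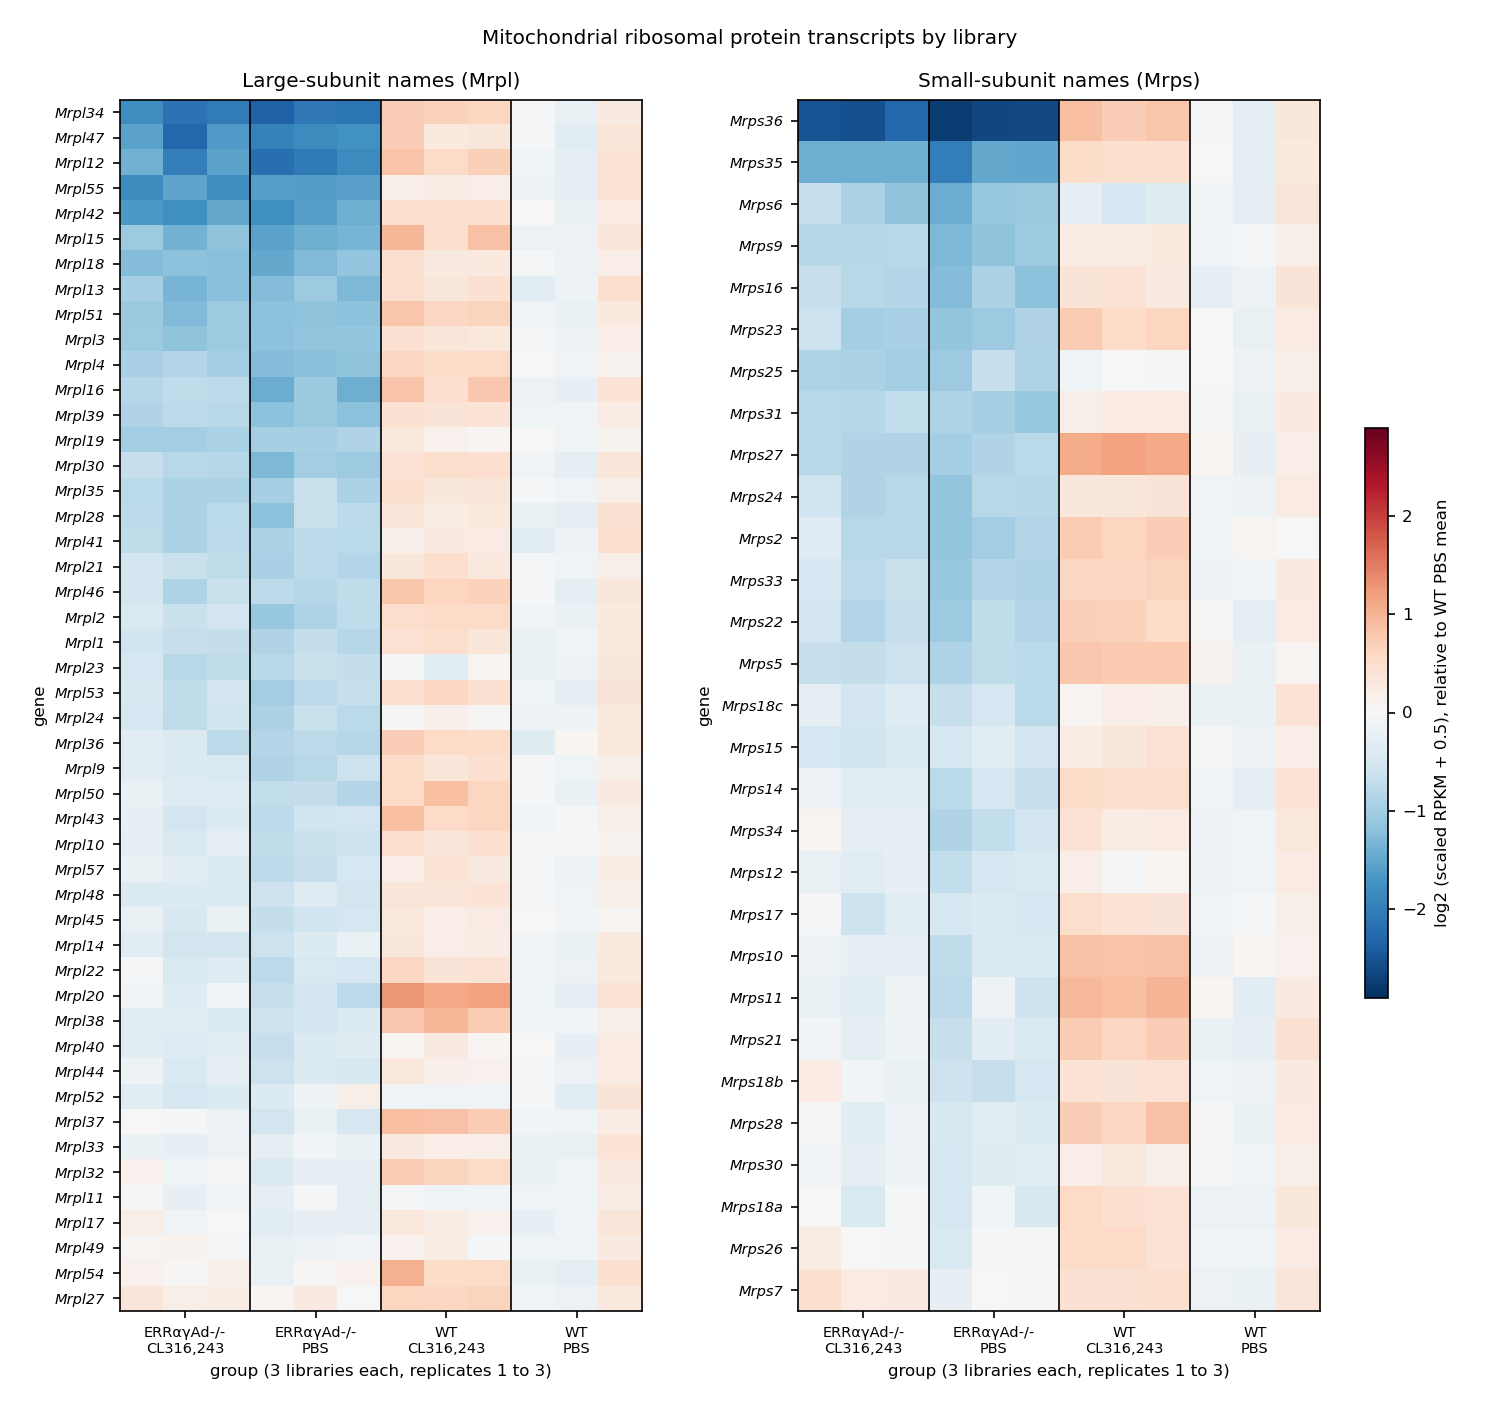
Each row is a member and each column a library, grouped from left to right as ERRαγAd-/- CL316,243, ERRαγAd-/- PBS, WT CL316,243 and WT PBS, and colour is log2(scaled RPKM + 0.5) relative to the WT PBS mean. The strongest blue is in Mrps36, Mrpl34, Mrpl47 and Mrpl12 of the ERRαγAd-/- libraries, while Mrpl27 and Mrps7, at the foot of the panels, show little change; on the deposited RPKM scale 9 members are instead called higher in ERRαγAd-/- under PBS.

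The first comparison asks which of these transcripts differ between genotypes at the unstimulated state, ERRαγAd-/- PBS against WT PBS. Under PBS, 66 of the 77 members fell in ERRαγAd-/-, none rose and 11 did not pass the test. No member had an unadjusted limma p under 0.05 for a rise, and edgeR and DESeq2 on the recovered reads also called 0 rises. Over all genes tested, 18.4% fell and 15.8% rose. The median change of the members was -0.77 on the log2 scale, against 0.01 over all genes, and 20 members were at least 2-fold lower. In 67 members the 3 ERRαγAd-/- libraries all lay below the 3 WT libraries, an arrangement found in 22.8% of all genes. Measured on the deposited scale, 32 members were called lower and 9 higher, with a median of -0.19, where 6.22% of all genes were called lower and 66.3% higher. In bulk tissue, fewer cells of a type and less RNA per cell cannot be told apart. Without replicate 3 of both ERRαγAd-/- groups, which had the most muscle RNA, 61 members fell. Without replicate 3 of WT PBS the count was also 61, with a median of -0.62. Most of the calls were thus present without the libraries that stood apart.

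Mrps36 differed most. Its product has been assigned to the 2-oxoglutarate dehydrogenase complex of the citric acid cycle rather than to the ribosome, although the gene keeps its ribosomal name. Mrps36 was at 19.8, 21.7 and 21.9 scaled RPKM in ERRαγAd-/- PBS and at 131, 115 and 171 in WT PBS, a log2 change of -2.67 ± 0.13 (SE, adjusted p = 4.0e-08), or 6.37-fold lower. No ERRαγAd-/- library came near the lowest WT library. Mrps36 has 3 pseudogenes named after it in the annotation, and Mrpl23 and Mrpl48 have 1 each, so reads may have been split among copies in these 3 genes. Mrps35, a small-subunit protein without a bacterial relative, was at 14.2, 20.4 and 20.2 scaled RPKM in ERRαγAd-/- PBS against 57.01, 48.6 and 70.04 in WT PBS (-1.66 ± 0.15, adjusted p = 3.7e-06). Mrps6, the counterpart of bacterial S6, was at 22.9, 29.4 and 29.8 against 60.1, 51.99 and 80.7 (-1.20 ± 0.17, adjusted p = 1.7e-04). Both were separated by genotype without overlap. Mrps9, whose bacterial counterpart reaches the tRNA in the peptidyl site, was at 18.8, 20.8 and 22.3 scaled RPKM in ERRαγAd-/- PBS and 43.3, 46.2 and 52.2 in WT PBS (-1.18 ± 0.09, adjusted p = 8.7e-07). Its libraries lay close together within each genotype.

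Among large-subunit proteins, Mrpl34, the counterpart of a very short bacterial protein, changed most. Mrpl34 was at 20.9, 25.1 and 24.3 scaled RPKM in ERRαγAd-/- PBS and 105, 92.4 and 129 in WT PBS, a log2 change of -2.18 ± 0.13 (adjusted p = 1.4e-07). Mrpl12 is the counterpart of bacterial L7/L12, the stalk that recruits translation factors, and was at 24.4, 26.7 and 30.9 against 104, 92.9 and 147 (-2.03 ± 0.18, adjusted p = 4.8e-06). In both genes the highest ERRαγAd-/- library was far below the lowest WT library. Mrpl10, on which that stalk is anchored, fell less (-0.66 ± 0.08, adjusted p = 5.5e-05), at 23.3, 24.8 and 25.4 scaled RPKM in ERRαγAd-/- PBS and 37.9, 37.3 and 42.1 in WT PBS. Mrpl47, the counterpart of bacterial L29 at the rim of the exit tunnel, was at 7.38, 8.06 and 8.66 against 29.7, 24.3 and 38.6 (-1.86 ± 0.20, adjusted p = 2.3e-05). Mrpl55, the counterpart of bacterial L31, was at 11.5, 11.3 and 11.7 against 32.2, 30.1 and 47.5 (-1.60 ± 0.14, adjusted p = 4.4e-06). None of these genes had overlapping genotypes. In Mrpl47, 24.2% of exon bases lie inside Actl6a and Ndufb5, and its value is less certain for that. Mrps36, Mrpl34 and Mrpl12 changed less on the deposited scale but kept their sign and their call.

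**Figure D2:**
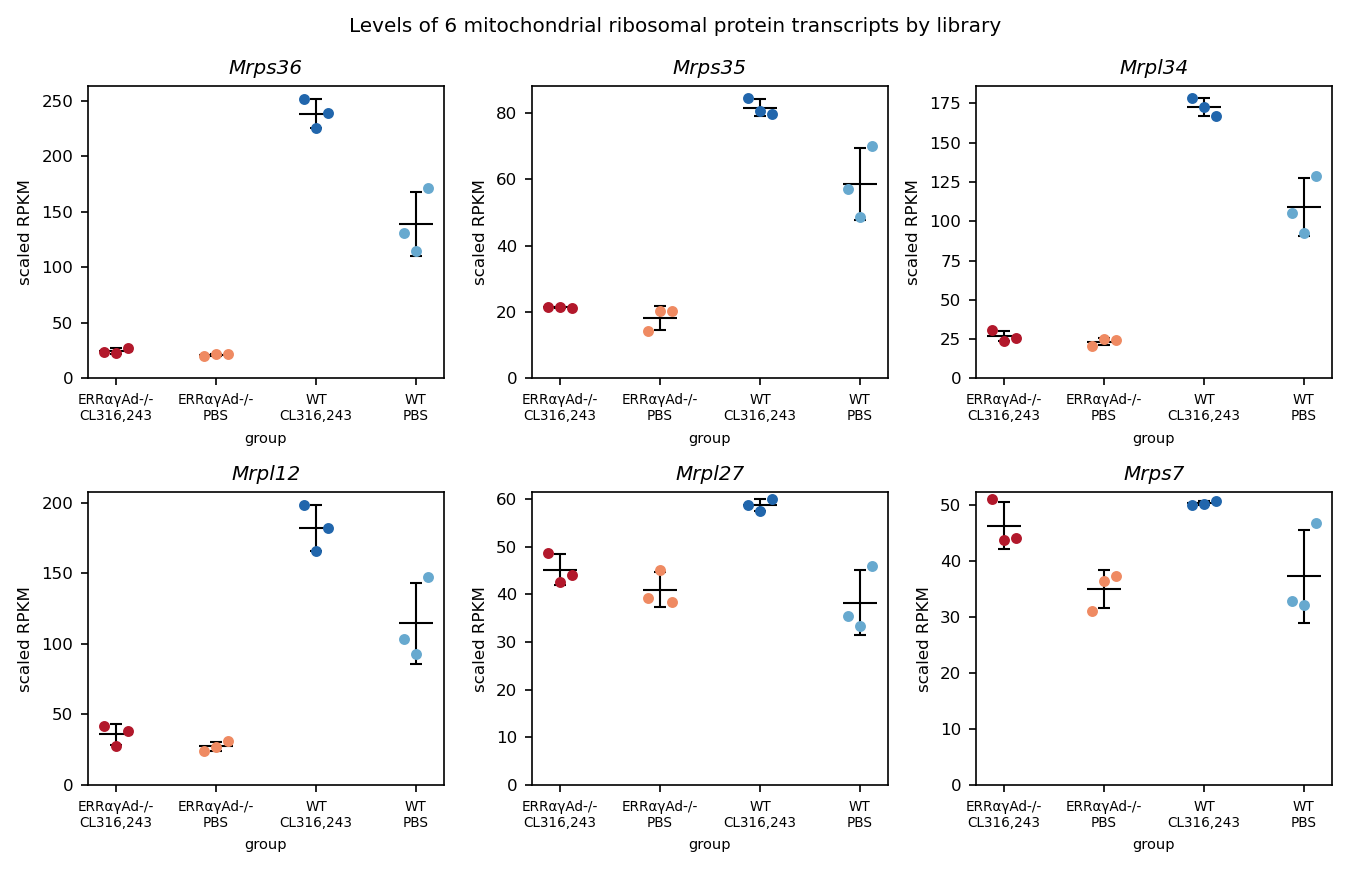
Scaled RPKM (linear axis from 0) of 6 members by group, with a point per library and the mean ± SD in black (n = 3). Mrps36, Mrps35, Mrpl34 and Mrpl12 are low in both ERRαγAd-/- groups, whereas the PBS groups of Mrpl27 and Mrps7 overlap between genotypes; on the deposited scale both are called higher in ERRαγAd-/- under PBS.

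The 11 members that did not pass the test under PBS had log2 changes from -0.36 to 0.11. They included counterparts of bacterial proteins near the catalytic and factor-binding sites. Members were not compared by site, and Mrpl12 and Mrpl10, of the stalk that recruits translation factors, fell. Mrpl27, the relative of bacterial L27 at the peptidyl transferase centre, was the 1 member with a positive change. It was at 39.3, 45.1 and 38.4 scaled RPKM in ERRαγAd-/- PBS and 35.4, 33.4 and 45.98 in WT PBS (0.11 ± 0.12, adjusted p = 0.508), with overlapping groups. Mrpl54 was at 30.1, 35.9 and 37.9 against 30.7, 28.8 and 48.5 (-0.02 ± 0.19), and Mrps7, the counterpart of a protein that starts assembly of the bacterial small-subunit head, at 31.1, 36.5 and 37.4 against 32.8, 32.2 and 46.8 (-0.07 ± 0.13). The rest were Mrpl11 (-0.19), Mrpl17 (-0.29), Mrpl32 (-0.30), Mrpl33 (-0.19), Mrpl49 (-0.17), Mrpl52 (-0.12), Mrps18a (-0.36) and Mrps26 (-0.18). Of these 11, Mrpl11, Mrpl27, Mrpl32, Mrpl33, Mrpl49, Mrpl52, Mrpl54, Mrps7 and Mrps26 were called higher in ERRαγAd-/- on the deposited scale.

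Promoter sequences are shown of Mrps36, Mrpl34 and Mrpl12, which changed most under PBS, and of Mrps27 and Mrpl27. Mrps27 had the largest genotype difference in agonist effect, given below, and Mrpl27 did not fall under PBS. Their letters can thus be set beside the values. Each is the RefSeq window from 250 bases before to 50 bases after the gene's start on GRCm38.p6, written 5′ to 3′ on the gene's strand. Capitals mark matches, on either strand, to the searched motifs AAGGTCA (core of the ERR element), GCGCA followed by any base and GCGC (NRF1), CCGGAAG (ETS factors such as GABP), AAGATGGCG (YY1) and TGACGTCA (CRE). Mrps36 (chr13:100744610-100744909, minus strand) held no match. Mrpl34 (chr8:71464676-71464975, plus strand) held CCGGAAG. Mrpl12 (chr11:120484387-120484686, plus strand) held an NRF1 match and, near its end, the reverse complement of AAGGTCA. Mrps27 (chr13:99344536-99344835, plus strand) held CCGGAAG in reverse and the YY1 motif. Mrpl27 (chr11:94653541-94653840, plus strand) held CCGGAAG.
Mrps36: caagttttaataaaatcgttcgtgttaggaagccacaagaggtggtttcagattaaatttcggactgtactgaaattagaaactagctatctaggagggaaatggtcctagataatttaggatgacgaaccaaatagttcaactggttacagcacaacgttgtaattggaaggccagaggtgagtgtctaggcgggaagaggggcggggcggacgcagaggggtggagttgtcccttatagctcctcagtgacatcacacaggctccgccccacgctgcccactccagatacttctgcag
Mrpl34: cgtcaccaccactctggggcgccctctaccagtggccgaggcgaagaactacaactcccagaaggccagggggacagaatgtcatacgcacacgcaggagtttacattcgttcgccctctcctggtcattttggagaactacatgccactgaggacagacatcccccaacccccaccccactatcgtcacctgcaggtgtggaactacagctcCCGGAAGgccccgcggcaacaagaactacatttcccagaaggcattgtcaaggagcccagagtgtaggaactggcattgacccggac
Mrpl12: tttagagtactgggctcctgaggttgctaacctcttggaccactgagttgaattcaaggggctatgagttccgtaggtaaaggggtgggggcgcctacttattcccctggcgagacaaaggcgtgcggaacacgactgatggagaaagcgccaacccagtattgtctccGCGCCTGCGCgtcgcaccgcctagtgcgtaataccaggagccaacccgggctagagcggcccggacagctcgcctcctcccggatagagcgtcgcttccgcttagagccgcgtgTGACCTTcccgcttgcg
Mrps27: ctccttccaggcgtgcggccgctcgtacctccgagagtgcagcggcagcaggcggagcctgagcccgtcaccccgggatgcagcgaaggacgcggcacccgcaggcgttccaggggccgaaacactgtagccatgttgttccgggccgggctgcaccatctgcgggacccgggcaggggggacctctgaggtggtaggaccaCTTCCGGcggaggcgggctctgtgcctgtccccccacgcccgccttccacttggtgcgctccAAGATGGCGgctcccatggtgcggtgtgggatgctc
Mrpl27: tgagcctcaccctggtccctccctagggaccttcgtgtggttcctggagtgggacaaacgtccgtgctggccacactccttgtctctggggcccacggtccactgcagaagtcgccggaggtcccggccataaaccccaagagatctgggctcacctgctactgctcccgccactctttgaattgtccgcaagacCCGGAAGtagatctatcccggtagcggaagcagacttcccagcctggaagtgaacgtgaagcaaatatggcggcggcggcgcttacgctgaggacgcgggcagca

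Of the 77 members, 68 had a RefSeq promoter window. The full ERR element TNAAGGTCA, which contains the core, was found in 0 of these windows, in 1.28% of all 32851 windows and in 0.888% of the 9343 tested genes that had one. Its core AAGGTCA was in 4 members (Mrpl12, Mrpl36, Mrps15 and Mrps21), or 5.88%, against 3.97% of tested genes. No match says only that these letters are not in this window. CCGGAAG was in 25 members (36.8%) and in 20.1% of tested genes. The NRF1 motif was in 13 members (19.1%) and in 11.8% of tested genes. AAGATGGCG was in 8 members (11.8%) and 3.67% of tested genes, and TGACGTCA in 2 members (2.94%) and 3.55%. Over all windows the shares were 4.72% for AAGGTCA, 8.86% for CCGGAAG, 4.6% for the NRF1 motif, 1.4% for AAGATGGCG and 1.79% for TGACGTCA. Between genotypes under PBS, the median log2 change of members with a motif and of those without it was -0.64 and -0.78 for CCGGAAG, -0.59 and -0.79 for the NRF1 motif, -0.65 and -0.77 for AAGGTCA, -0.82 and -0.76 for AAGATGGCG, and -0.74 and -0.77 for TGACGTCA. These are descriptions of letters, and binding was not measured.

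The subunits differed little in their medians. Under PBS, 40 of 48 Mrpl genes and 26 of 29 Mrps genes fell, with median log2 changes of -0.78 and -0.72. The names do not match the assembled ribosome throughout, since the proteins of Mrps18a and Mrps30 lie in the large subunit. With these 2 genes moved and Mrps36 left out, 41 of 50 large-subunit and 24 of 26 small-subunit genes fell, with medians of -0.77 and -0.76. The ratio of summed Mrpl to summed Mrps levels was 1.504 ± 0.0306 in ERRαγAd-/- CL316,243, 1.61 ± 0.0419 in ERRαγAd-/- PBS, 1.66 ± 0.0286 in WT CL316,243 and 1.66 ± 0.00764 in WT PBS (SD, n = 3 each). With subunits set by structure and Mrps36 in neither, a split added to this ratio after the data were seen, it was 1.77 ± 0.0427 in ERRαγAd-/- CL316,243, 1.898 ± 0.0396 in ERRαγAd-/- PBS, 2.11 ± 0.0484 in WT CL316,243 and 2.06 ± 0.0162 in WT PBS. By that split every ERRαγAd-/- library lay below every WT library. The 46 members with a bacterial counterpart had 40 genes lower and a median of -0.80, and the 31 members without one had 26 and -0.72. These medians are on the scaled values; on the deposited scale the median over all members was -0.19. The spread among members was wide: the SD of the log2 change was 0.50 over the 77 members and 0.19 over 76 cytosolic ribosomal proteins. The 3 genes named after bacterial S18 lay closer together, with changes of -0.36 ± 0.16 for Mrps18a, -0.59 ± 0.13 for Mrps18b and -0.65 ± 0.15 for Mrps18c. Of these, Mrps18b and Mrps18c passed the test.

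The second comparison sets the genotypes against each other after 10 days of CL316,243. Of the 77 members, 72 fell in ERRαγAd-/- CL316,243 against WT CL316,243 and none rose, while over all genes 21.6% fell and 19.8% rose. Again 0 rises had an unadjusted limma p under 0.05, and edgeR and DESeq2 called 0. The median change was -1.02 on the log2 scale, against 0.01 over all genes, and 41 members were at least 2-fold lower. The libraries did not overlap in 73 members, all lower in ERRαγAd-/-, an arrangement found in 27.8% of all genes. With the RPKM values as deposited, 41 members were called lower and 10 higher, with a median of -0.33, where 6.62% of genes were called lower and 70.5% higher. Without replicate 3 of both ERRαγAd-/- groups 64 members fell. By name, 44 of 48 Mrpl genes (median -1.08) and 28 of 29 Mrps genes (median -0.91) fell. With subunits set by structure the medians were -1.04 and -0.96.

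Mrps36 again changed most, at 23.7, 23.1 and 27.8 scaled RPKM in ERRαγAd-/- CL316,243 and 251, 225 and 239 in WT CL316,243, a log2 change of -3.24 ± 0.13 (adjusted p = 6.6e-09), or 9.44-fold lower. In WT CL316,243 it had the highest mean level of the members, which was not so in ERRαγAd-/-. Mrpl34 was at 30.6, 24.1 and 25.9 in ERRαγAd-/- CL316,243 and 178, 172 and 167 in WT CL316,243 (-2.66 ± 0.13, adjusted p = 1.9e-08). Mrpl12 was at 42.1, 27.6 and 38.1 against 199, 166 and 182 (-2.34 ± 0.18, adjusted p = 9.8e-07). In each of these genes every WT library was several times above every ERRαγAd-/- library. Mrpl47 was at 10.00, 5.85 and 9.37 against 50, 37.1 and 38.4 (-2.27 ± 0.20), and Mrpl42, a large-subunit protein with no bacterial relative, at 45.9, 42.5 and 52.4 against 205, 204 and 203 (-2.11 ± 0.13). Among small-subunit genes, Mrps35 changed by -1.91 ± 0.15 and Mrps23, also without a bacterial relative, by -1.49 ± 0.13. All 4 fell. Mrps27, which encodes a pentatricopeptide repeat protein of the small subunit, was at 10.4, 9.84 and 9.91 scaled RPKM in ERRαγAd-/- CL316,243 and 39.7, 42.3 and 40.02 in WT CL316,243 (-1.97 ± 0.10, adjusted p = 4.0e-08). Its genotype groups were tight and far apart, although 24.2% of its exon bases lie inside another annotated gene.

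Under CL316,243 the 5 members that did not pass the test were Mrpl11 (-0.03 ± 0.11), Mrpl17 (-0.20 ± 0.14), Mrpl49 (-0.05 ± 0.11), Mrpl52 (-0.29 ± 0.17) and Mrps7 (-0.12 ± 0.13). The protein of Mrpl11 is the counterpart of bacterial L11 at the factor-binding centre. All 5 also missed the test under PBS. Conversely, Mrpl27 was at 48.8, 42.7 and 44.1 scaled RPKM in ERRαγAd-/- CL316,243 and 58.7, 57.5 and 59.95 in WT CL316,243 and fell (-0.38 ± 0.12, adjusted p = 0.0206), although on the deposited scale it was 0.33 higher and called so. In all, 66 members fell in both genotype comparisons, 6 under CL316,243 alone and 5 in neither, which does not by itself show that the 6 differ between treatments. The shares of all genes in these classes are not given, so the counts describe the members only. These calls hold on the scaled values. The 10 members called higher in ERRαγAd-/- under CL316,243 on the deposited scale were Mrpl11, Mrpl17, Mrpl27, Mrpl33, Mrpl49, Mrpl52, Mrps7, Mrps12, Mrps18b and Mrps30. The genotype changes under CL316,243 and under PBS, which share no library, had a Pearson r of 0.89 over the 77 members and of 0.82 over all genes. Members come from the same 12 libraries and the same fit, so this is a description.

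**Figure D3:**
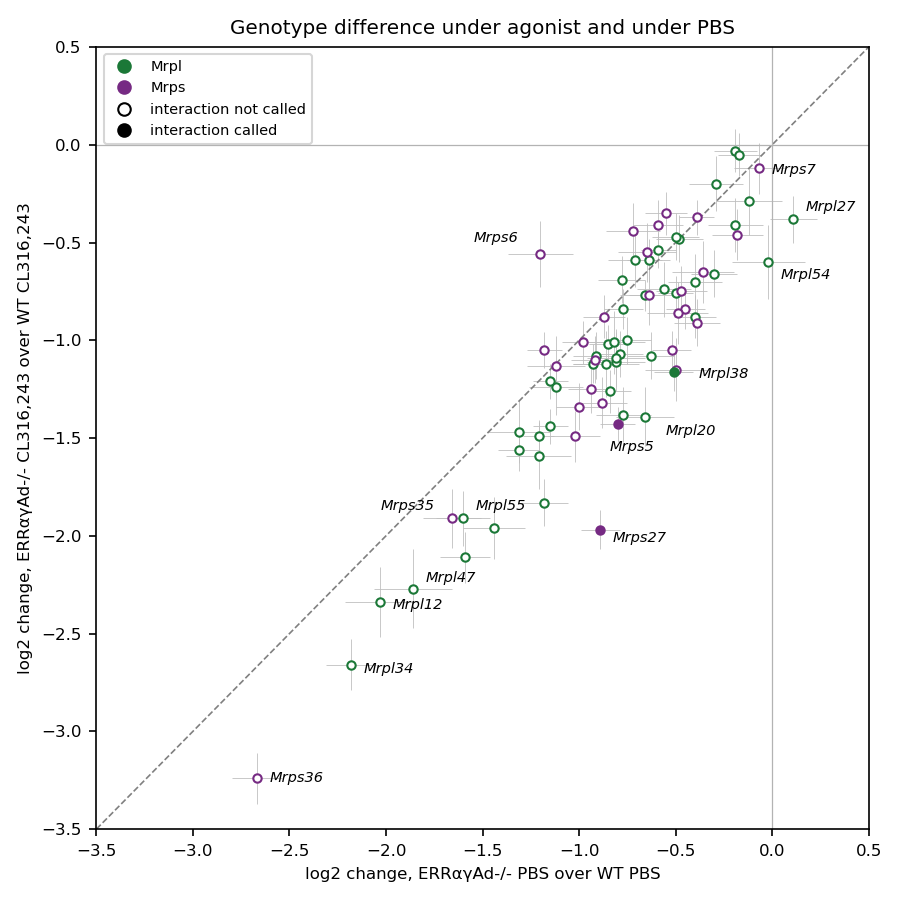
Each point is a member, with its log2 change between genotypes under PBS on the x axis and under CL316,243 on the y axis; bars are ± 1 SE, the dashed line is equality, and filled points passed the test of a genotype difference in agonist effect (interaction). Of the 77 points, 62 lie below the line, with Mrps36 at the lower left, Mrpl27 the only point right of 0 and Mrps27 farthest below the line; on the deposited scale 9 members under PBS and 10 under CL316,243 are called higher in ERRαγAd-/-.

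The third comparison asks how the agonist acts in WT BAT. In WT, 50 of the 77 members rose with CL316,243, none fell and 27 did not pass the test. For a fall, 0 members had an unadjusted limma p under 0.05, and edgeR and DESeq2 called 0. Over all genes 18% rose and 12.6% fell. The median change was 0.44 on the log2 scale, against 0.01 over all genes. Libraries did not overlap in 53 members, all higher with CL316,243, an arrangement found in 24% of all genes. The deposited scale had 21 members called higher and 5 lower, with a median of 0.12, where 7.2% of genes were called higher and 38.1% lower. By name, 30 of 48 Mrpl genes (median 0.43) and 20 of 29 Mrps genes (median 0.49) rose. The count depended on WT PBS: it was 66, with a median of 0.59, without replicate 3 of that group, and 31 without its replicate 2. Macrophage markers moved the other way. Their summed level over 7 genes, none at 0 in all libraries, was 132 to 170.3 in WT CL316,243 and 233 to 456 in WT PBS. It was 145 to 194 in ERRαγAd-/- CL316,243 and 252 to 286 in ERRαγAd-/- PBS. The part of macrophage RNA in the members' changes was not tested.

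Mrpl20, the counterpart of a protein that binds early to the bacterial large-subunit RNA, rose most in WT, at 142, 128 and 133 scaled RPKM with CL316,243 and 53.5, 47.6 and 77.95 with PBS (1.19 ± 0.15, adjusted p = 2.0e-04). Mrps27 was at 39.7, 42.3 and 40.02 against 19.1, 15.6 and 21.2 (1.12 ± 0.10, adjusted p = 2.2e-05). Mrps11, the counterpart of bacterial S11 on the platform that faces the mRNA, was at 29.2, 27.97 and 30.4 against 15.8, 11.98 and 18.1 (0.93 ± 0.16, adjusted p = 0.00122). The treated and untreated libraries of these 3 genes did not overlap. Mrps10 changed by 0.85 ± 0.10, Mrps36 by 0.79 ± 0.13, Mrpl37 by 0.81 ± 0.11 and Mrpl15 by 0.76 ± 0.16, all called higher. Mrpl38, a protein of the central protuberance of the large subunit, was at 54.2, 60.9 and 52.4 scaled RPKM with CL316,243 and 28.9, 29.6 and 35.1 with PBS (0.83 ± 0.10, adjusted p = 9.5e-05). The largest estimate in the other direction belonged to Mrps6, at 52.5, 45.2 and 49.8 with CL316,243 and 60.1, 51.99 and 80.7 with PBS. Its log2 change of -0.36 ± 0.17 did not pass the test (adjusted p = 0.126).

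In ERRαγAd-/- BAT the same dose was followed by fewer calls. With CL316,243 against PBS, 8 of the 77 members rose, none fell and 69 did not pass the test, where 6.68% of all genes rose and 3.62% fell. At an unadjusted limma p under 0.05, 25 members were higher and 0 lower; edgeR called 5 higher and DESeq2 12, and neither called any lower. The median change was 0.22, against 0.02 over all genes, and 68 members had a positive estimate. Libraries did not overlap in 33 members, all higher with CL316,243, an arrangement found in 18.8% of all genes. The 8 were Mrps18b, Mrps34, Mrpl50, Mrpl9, Mrps9, Mrpl39, Mrpl10 and Mrpl4, with log2 changes from 0.29 for Mrpl4 to 0.58 for Mrps18b. Mrps18b was at 36.7, 29.5 and 27.1 scaled RPKM in ERRαγAd-/- CL316,243 and 20.4, 19.6 and 21.7 in ERRαγAd-/- PBS (0.58 ± 0.13, adjusted p = 0.0153). Mrps34, needed for the stability of the small subunit, was at 50.3, 39.9 and 40.03 against 25.8, 29.1 and 32.4 (0.57 ± 0.14, adjusted p = 0.0271). Neither gene's treated and untreated libraries overlapped. Mrps34 and Mrps18b have 77.8% and 30.5% of their exon bases inside another annotated gene, and whether strand was used in counting is not given, so their values are uncertain. Only Mrps18b was called on the deposited scale, where 3.23% of genes were called higher and the members' median was 0.03. The count of 8 was fragile: it was 0 without replicate 1 of ERRαγAd-/- CL316,243 (14 higher at an unadjusted limma p under 0.05), 0 without replicate 1 of ERRαγAd-/- PBS (11 higher), 2 without replicate 3 of ERRαγAd-/- CL316,243, 4 without its replicate 2, and 19 without replicate 3 of WT PBS, which enters through the shared spread. Leaving out replicate 3 of ERRαγAd-/- PBS or replicate 1 of WT CL316,243 gave 5, and leaving out replicate 3 of WT CL316,243 gave 4. Without both ERRαγAd-/- replicates 3 it was 1.

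**Figure D4:**
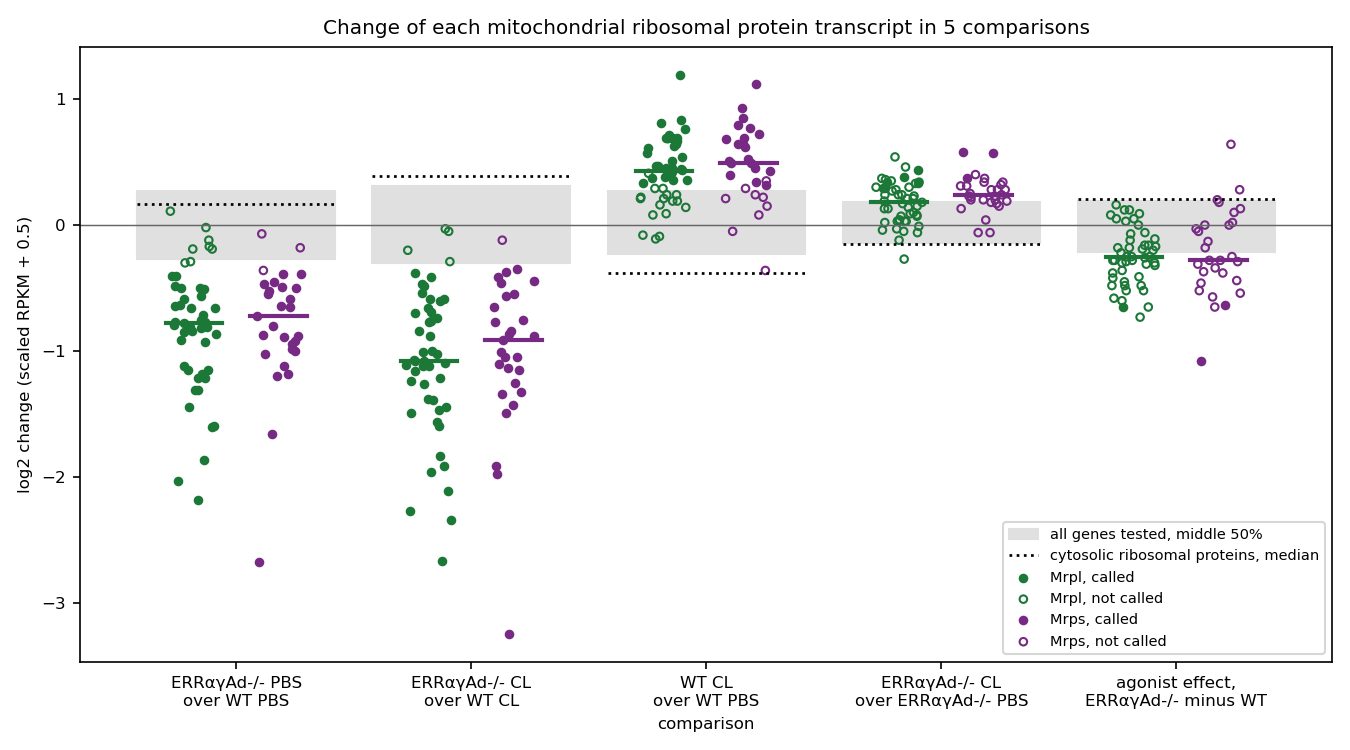
Points are the log2 changes of the 77 members in 5 comparisons, Mrpl and Mrps side by side, filled where limma's adjusted p was under 0.05; short bars are the medians. The genotype columns sit below 0 (medians -0.77 under PBS and -1.02 under CL316,243), the WT agonist column above it (0.44), and the ERRαγAd-/- agonist column nearer to 0 (0.22); on the deposited scale the medians are -0.19, -0.33, 0.12 and 0.03.

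Whether the agonist effect differed between genotypes was tested directly, as the effect in ERRαγAd-/- minus that in WT. Of the 77 members, 3 passed, all with a smaller effect in ERRαγAd-/-, where 2.02% of all genes were called in that direction and 1.89% in the other. The median of this difference was -0.26, against -0.00 over all genes, and the estimate of the agonist effect was larger in WT in 62 members. Most members that rose in WT alone are therefore not shown to respond differently in ERRαγAd-/-. The same 3 genes passed on the deposited scale, where 1.26% of genes were called lower.

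Mrps27 had the largest difference. It was at 10.4, 9.84 and 9.91 scaled RPKM in ERRαγAd-/- CL316,243 and 9.11, 9.81 and 10.5 in ERRαγAd-/- PBS, but at 39.7, 42.3 and 40.02 in WT CL316,243 and 19.1, 15.6 and 21.2 in WT PBS. The agonist thus left its level overlapping in ERRαγAd-/- (0.04 ± 0.10) and raised it without overlap in WT, a difference of -1.08 ± 0.15 (adjusted p = 0.00265). Mrps27 passed in every setting tried. Mrps5, the counterpart of a bacterial protein that bears on decoding accuracy, was at 20.6, 20.2 and 21.1 in ERRαγAd-/- CL316,243 and 17.4, 19.7 and 19.2 in ERRαγAd-/- PBS. In WT it was at 57.1, 56.5 and 56.1 with CL316,243 and 35.3, 29.1 and 35.2 with PBS, a difference in agonist effect of -0.63 ± 0.12 (adjusted p = 0.0169). Mrpl38 was at 25.2, 25.2 and 23.5 in ERRαγAd-/- CL316,243 and 20.4, 21.3 and 23.4 in ERRαγAd-/- PBS, which with its WT values gave -0.65 ± 0.14 (adjusted p = 0.0243). In Mrps5 and Mrpl38, too, the WT libraries with CL316,243 stood above all others. In these 2 genes the ERRαγAd-/- CL316,243 libraries also lay above the ERRαγAd-/- PBS libraries, though that change did not pass the test (adjusted p = 0.374 and 0.267).

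Mrpl38 lost its call without any 1 of 6 libraries, namely ERRαγAd-/- PBS replicate 3, ERRαγAd-/- CL316,243 replicate 2 or 3, WT PBS replicate 1 or 2, or WT CL316,243 replicate 2, where its adjusted p was 0.0501 to 0.0630. Mrps5 lost its call without both ERRαγAd-/- replicates 3 (adjusted p = 0.0746), which left Mrps27 alone. Without replicate 3 of WT PBS, 21 members passed, all with a smaller effect in ERRαγAd-/-. The share of all genes that passed in that fit is not given, so the rise cannot be laid to the members alone. Close to the threshold were Mrpl51 (-0.65 ± 0.17, adjusted p = 0.0538), Mrps10 (-0.54 ± 0.15, adjusted p = 0.0645), Mrpl20 (-0.73 ± 0.22, adjusted p = 0.0890) and Mrps28 (-0.52 ± 0.16, adjusted p = 0.105).

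**Figure D5:**
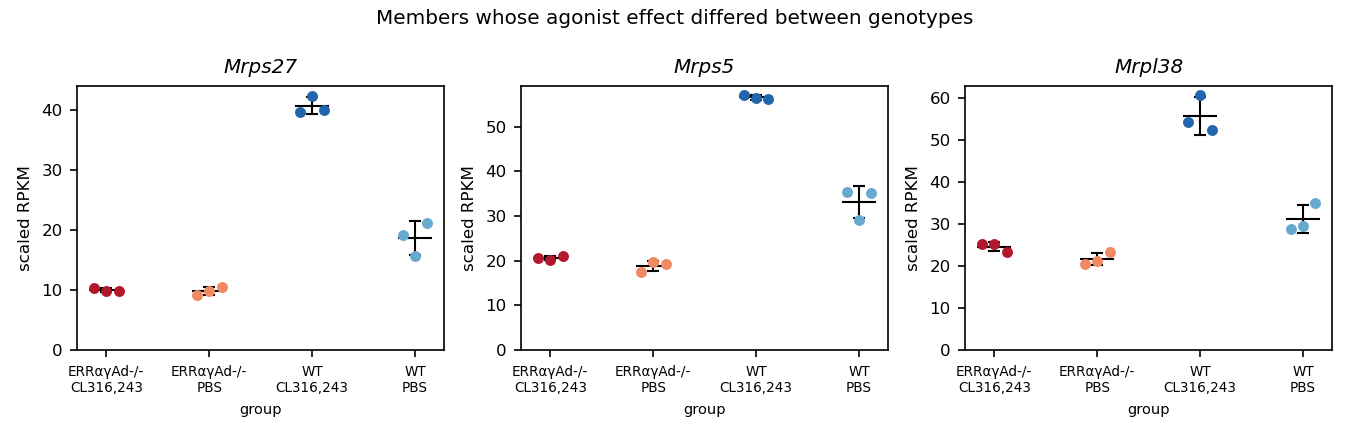
Scaled RPKM (linear axis from 0) of Mrps27, Mrps5 and Mrpl38 by group, with a point per library and the mean ± SD in black (n = 3). Both ERRαγAd-/- groups lie below WT CL316,243, overlapping each other in Mrps27 and with CL316,243 above PBS in Mrps5 and Mrpl38, while WT CL316,243 lies above WT PBS in each gene, with Mrps27 at 39.7 to 42.3 against 15.6 to 21.2 scaled RPKM.

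Levels differed widely between members in every group. Mrpl19, whose bacterial counterpart sits at the subunit interface, had the lowest mean in all 4 groups, with 1.98 scaled RPKM in ERRαγAd-/- CL316,243, 2.03 in ERRαγAd-/- PBS, 4.90 in WT CL316,243 and 4.34 in WT PBS. Mrps21 had the highest mean in ERRαγAd-/-, at 112 scaled RPKM with CL316,243 and 90.02 with PBS. In WT the highest was Mrps36 with CL316,243, at 238, and Mrpl30 with PBS, at 153. The top of the order thus differed between genotypes and, in WT, between treatments. In WT PBS the leading members were not set apart: Mrpl30 was at 153 ± 33.9, Mrpl42 at 148 ± 23.4 and Mrps36 at 139 ± 29.0 (SD). Mrps21, the counterpart of bacterial S21, was 203 ± 9.72 in WT CL316,243 and 129 ± 36.1 in WT PBS (SD, n = 3 each), and fell under PBS in ERRαγAd-/- (-0.49 ± 0.16, adjusted p = 0.0355); on the deposited scale that change was positive, at 0.10. These levels are per length, but the annotation that gave the lengths is not known, so the order of members is uncertain. For Mrpl19, 36% of exon bases also lie inside another annotated gene. The median member stood at 24.9, 21.1, 49.1 and 35.98 scaled RPKM in ERRαγAd-/- CL316,243, ERRαγAd-/- PBS, WT CL316,243 and WT PBS. The SD of the members' log2 levels was 1.07, 1.04, 1.13 and 1.08 in the same order.

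Other genes of mitochondrial translation are given for comparison by counts, to be read against the 18.4% of all genes that fell and 15.8% that rose under PBS, and the 21.6% and 19.8% under CL316,243. Of 6 mitoribosome proteins without an Mrp symbol, 5 fell in ERRαγAd-/- under PBS (median log2 change -0.52) and 6 under CL316,243 (-0.82). Among them Ptcd3, a small-subunit pentatricopeptide repeat protein like Mrps27, changed by -1.12 ± 0.07 under PBS and -1.85 ± 0.07 under CL316,243. Of 25 assembly factors, 13 and 15 fell (medians -0.35 and -0.45), and 1 rose under CL316,243. Of 20 translation factors, 13 and 18 fell (medians -0.63 and -1.04). Gfm1, the elongation factor that moves the ribosome along the mRNA, changed by -1.44 ± 0.11 under PBS and -2.28 ± 0.11 under CL316,243. Of 20 mitochondrial tRNA synthetases and related enzymes, 10 and 16 fell (medians -0.33 and -0.78). Complex I subunits, which include partners of mitochondrially translated proteins, fell in 36 of 36 under both treatments (medians -2.01 and -2.26). Of 76 cytosolic ribosomal proteins, 7 rose under PBS (a share below that of all genes; median 0.17) and 37 under CL316,243 (median 0.39). None of them fell by limma; at an unadjusted p under 0.05, 0 were lower under PBS and 1 under CL316,243, edgeR called 0 lower in both, and DESeq2 called 0 and 1. On the deposited scale the median of the cytosolic set was 0.76 and 1.10, that of complex I -1.42 and -1.54, that of the translation factors -0.06 and -0.35, that of the proteins without an Mrp symbol 0.05 and -0.10, that of the assembly factors 0.20 in both, and that of the synthetases 0.18 and -0.10. With CL316,243 in WT, where 18% of all genes rose and 12.6% fell, 34 cytosolic ribosomal proteins fell (median -0.38; -0.70 on the deposited scale), 24 complex I subunits rose (0.56 and 0.23), and 16 of the 20 translation factors rose (0.55 and 0.23).

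The 77 genes lie on 17 chromosomes in the GENCODE M21 annotation of GRCm38. Among those described above, Mrps36 lies at chr13:100735955-100744659, Mrpl34 at chr8:71464959-71465747, Mrpl12 at chr11:120484613-120489065, Mrps27 at chr13:99344786-99415562, Mrps5 at chr2:127587222-127606829 and Mrpl38 at chr11:116131817-116138868. A protein-coding gene starts within 1000 bases on the opposite strand, pointing away, for 18 of them (23.4%), and for 10.4% of the 11498 tested genes that could be placed. Of these neighbours 16 were tested; 4 fell in ERRαγAd-/- under PBS, where 18.4% of all genes fell, with a median of -0.08. Under CL316,243, where 21.6% of all genes fell and 19.8% rose, 6 fell and 3 rose, with a median of -0.30. Nothing is read from counts over so few genes. Mrpl54 and its neighbour Apba3 start 26 bases apart, and under PBS Apba3 fell (log2 change -0.62) where Mrpl54 was at -0.02. Mrps27 and Ptcd2, which encodes another pentatricopeptide repeat protein, start 81 bases apart. Ptcd2 changed by -1.01 ± 0.10 under PBS and -1.57 ± 0.10 under CL316,243, both called lower, and its agonist effect differed by -0.56 ± 0.15 (adjusted p = 0.0557). Mrpl46 and Mrps11 overlap at their starts on chromosome 7, at chr7:78775236-78783531 on the minus and chr7:78783119-78792989 on the plus strand. Over 25% of the exon bases of 7 members lie inside other genes (Mrpl53, Mrps34, Mrps25, Mrpl19, Mrpl43, Mrps18b and Mrpl24), led by Mrpl53 with 88%, and their values are uncertain for that reason.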

How the data were processed

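RNA was isolated from BAT with TRIzol and spin columns and treated with DNase, and the TruSeq total RNA kit took 1 µg per library, per the labels' protocols. The submitters' processing notes name bcl2fastq 2.16.0.10, cutadapt, STAR 2.3.0, edgeR and the builds mm9 and mm10; the sources used here do not give the build used for counting, the counter, the annotation, the use of strand or the read total behind the values. The authors deposited 2 tables: RPKM for 24452 genes, used for the main results, and a normalised signal for 12380 genes. The deposited signal values were whole multiples of 1 step per library in 100% of cells (within 0.01 of a read), which recovered the reads used for depth and for the count tests. A total of 9 stray cells outside the tables were left out. No 2 libraries held identical values.

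RPKM values were divided by median-of-ratios factors. Genes whose mean RPKM reached 0.5 were fitted with limma 3.58.1 (eBayes with trend, R 4.3.3) on log2(value + 0.5), with 4 group means over 12 libraries and 8 residual degrees of freedom, and adjusted by Benjamini-Hochberg over all 12249 genes. The pseudocount understates changes of low genes. A test on 3 against 3 libraries by permutation alone cannot go below p = 0.1. Alternatives were the deposited scale, quantile normalization, pseudocounts of 0.1 and 1, no filter, a filter of 2, a robust fit, the second table, the groups compared alone, a replicate block, each library left out, and edgeR 4.0.16 and DESeq2 1.42.0 on the recovered reads. The fits were tested on simulated data, but the outcome is not given here and no result above rests on it. The members and lists were chosen with earlier results of these data known, so their counts are descriptions. A count printed without a share of all genes does not set the members apart from other genes. Named members were, per comparison and subunit, the 4 called members with the largest changes and the 2 with the highest levels, all members not called between genotypes, those at or near the interaction threshold, and the Mrps18 paralogs; Apba3, Ptcd2, Ptcd3 and Gfm1 were chosen after their values were seen. Locations come from GENCODE M21 and promoters from RefSeq, not from the deposited files.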

Additional observations from a re-analysis of the deposited data

Results flagged for a closer look

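In 3 members the effect of CL316,243 differed between genotypes by a test of the difference itself, the effect in ERRαγAd-/- minus that in WT (limma, adjusted over all genes). All 3 had a smaller effect in ERRαγAd-/-, and 2.02% of all genes were called in that direction. The difference was -1.08 on the log2 scale for Mrps27, -0.65 for Mrpl38 and -0.63 for Mrps5. In each gene WT CL316,243 libraries exceeded all WT PBS libraries. In Mrps27 the ERRαγAd-/- groups overlapped. In Mrpl38 and Mrps5 the ERRαγAd-/- CL316,243 libraries lay above all ERRαγAd-/- PBS libraries, a change that did not pass the test (adjusted p = 0.267 and 0.374). Mrpl38 lost its call without any 1 of several libraries, and Mrps5 lost its call without both ERRαγAd-/- replicates 3. Groups of 3 are too small for a search for outlying samples.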

How the results depend on the processing

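On the deposited scale the members called were 32 lower (median log2 change -0.19) between genotypes under PBS, 41 lower (-0.33) under CL316,243, 21 higher (0.12) with agonist in WT and 1 higher (0.03) with agonist in ERRαγAd-/-. The sign of 26 named changes turned there. Under PBS, Mrps21 was at 0.10, Mrpl11 0.38, Mrpl17 0.27, Mrpl32 0.28, Mrpl33 0.40, Mrpl49 0.41, Mrpl52 0.46, Mrpl54 0.56, Mrps7 0.51, Mrps18a 0.23, Mrps26 0.40 and Mrps30 0.19. Under CL316,243, Mrpl11 was at 0.65, Mrpl17 0.47, Mrpl27 0.33, Mrpl49 0.65, Mrpl52 0.42, Mrps7 0.59, Mrps18a 0.06, Mrps18b 0.29, Mrps18c 0.17 and Mrps30 0.33. Members not named for these comparisons turned too. Under PBS these were Mrpl14, Mrpl22, Mrpl37, Mrpl38, Mrpl40, Mrpl44, Mrpl48, Mrps10, Mrps11, Mrps12, Mrps15, Mrps17 and Mrps28, at 0.02 to 0.19. All of them were called lower on the scaled values. Under CL316,243, 5 members called lower on the scaled values were called higher here (Mrpl27, Mrpl33, Mrps12, Mrps18b and Mrps30). By its construction this scale keeps the shift of the median gene. With agonist in WT, Mrps18c was at -0.18 and Mrps30 at -0.10, and in the difference of agonist effects Mrpl30 was at 0.00 (above 0 before rounding) and Mrpl10 at 0.02. In the other settings, the sign changes of named values were in values that passed the test neither there nor in the results reported. Under quantile normalization these were Mrpl33 0.10, Mrpl52 0.05, Mrpl54 0.13 and Mrps7 0.08 under PBS, Mrpl11 0.01, Mrpl49 0.03 and Mrps7 0.09 under CL316,243, and Mrps18c -0.05 with agonist in WT. With the second table Mrpl54 was at 0.00 under PBS, and the difference for Mrps30 was -0.01 there and with edgeR (TMM). Leaving out each library crossed 0 for Mrpl33 (-0.30 to 0.00), Mrpl52 (-0.28 to 0.07), Mrpl54 (-0.16 to 0.21) and Mrps7 (-0.17 to 0.10) under PBS, Mrpl11 (-0.07 to 0.03) and Mrpl49 (-0.13 to 0.01) under CL316,243, Mrpl42 (-0.14 to 0.05) with agonist in ERRαγAd-/-, and the differences for Mrpl30 (-0.30 to 0.00), Mrps18c (-0.12 to 0.21) and Mrps30 (-0.07 to 0.08). Quantile normalization gave a median of -0.84 between genotypes under CL316,243. The ERRαγAd-/- agonist count was 5 with the second table, with edgeR (TMM) and with the replicate block, and 1 without both ERRαγAd-/- replicates 3. The count of differing agonist effects was 5 with DESeq2 and 1 without those libraries; the causes were not tested. Leaving out each library gave 61 to 67 members lower under PBS (medians -0.85 to -0.62), 64 to 72 under CL316,243 (-1.06 to -1.0), 31 to 66 higher in WT (0.36 to 0.59), 0 to 19 in ERRαγAd-/- (0.16 to 0.28) and 2 to 21 differing (-0.39 to -0.17). No share of all genes is given beside the counts from fits without a library, so these counts do not set the members apart. The labels number replicates alike in each group. Same-numbered libraries deviated together in 7 of 18 pairs (correlations over 0.1, range -0.39 to 0.45). Differently numbered pairs spanned -0.47 to 0.45. Correlations within groups of 3 cannot settle whether the numbers pair the samples, and the main fit used no pairing. With 3 libraries a group, small changes may be missed.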
